A study of Drosophila melanogaster with 6 samples.

Results

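In Kc167 cells, 288 of the 9412 H3K4me3 peaks on the main chromosome arms overlapped an H3K27acS28ph peak and no peak of the kinase JIL-1. They were chosen by these 3 lists alone: an H3K4me3 peak on 2L, 2R, 3L, 3R, X or 4 was a member when it shared at least 1 bp with an H3K27acS28ph peak and no base with a JIL-1 peak, whether or not H3K9acS10ph was called there. Of the 2726 arm H3K4me3 peaks with H3K27acS28ph, 2438 overlapped JIL-1, so that the members made up 10.6% of them (95% Wilson interval 9.47 to 11.8). Over all arm H3K4me3 peaks 29% overlapped H3K27acS28ph and 67.9% overlapped JIL-1. Of the 3022 arm H3K4me3 peaks without JIL-1, 2734 had no H3K27acS28ph either. The presence of H3K27acS28ph and the lack of JIL-1 at the members are therefore the rule and not a result, as are the scores of the H3K4me3, H3K27acS28ph and JIL-1 peaks there, which are given as descriptions.

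Kc167 is a cell line derived from female late Drosophila melanogaster embryos, grown in serum-free medium. Untreated, fixed chromatin was immunoprecipitated with 1 of 6 antibodies and sequenced, in 1 library for each of H3K27acS28ph, JIL-1, H3K9acS10ph, H3K27ac, H3K4me1 and H3K4me3, and each library is given as the authors' list of called peaks. There were no replicates, so no difference below has a test across libraries, and the Wilson intervals cover counting error over peaks only, treating neighbouring peaks as independent. Read depth behind the lists is unknown.

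H3K4me3, trimethylation of lysine 4 of histone H3, marks active promoters, and H3K4me1 marks enhancers and the flanks of promoters. H3K27ac, acetylation of lysine 27, marks active promoters and enhancers. Each of the phosphoacetylated forms carries an acetylated lysine directly before a phosphorylated serine, K9 with S10 and K27 with S28. JIL-1 is a tandem kinase of interphase chromatin known above all for phosphorylating serine 10 of H3 at active genes. H3S28 can be phosphorylated by other kinases, Aurora B in mitosis among them. A site with H3K27acS28ph and no called JIL-1 peak is a place where the mark and the kinase list part. Which kinase acted at the members was not tested.

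The members nearly all carried the other phosphoacetylated mark. H3K9acS10ph was present at 256 of the 288 members (88.9%, 84.7 to 92), against 96.2% (95.3 to 96.9) of the 2438 H3K4me3 peaks with H3K27acS28ph and JIL-1 and 44% (42.2 to 45.9) of the 2734 with neither. Among all arm H3K4me3 peaks the share was 72.6%. The rule did not use H3K9acS10ph, and the 3 intervals do not overlap. H3K9acS10ph was thus called far more often at the members than at the other H3K4me3 peaks that lack JIL-1.

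The unphosphorylated marks lay in the same order. H3K27ac was found at 214 members (74.3%, 69 to 79), against 96.2% of the sites with H3K27acS28ph and JIL-1 and 23.7% of those with neither, and 62.5% of all arm H3K4me3 peaks. H3K4me1 was found at 219 members (76%, 70.8 to 80.6), against 95.2% with both and 35.1% with neither, and 69% of all. For both marks the members' share was closer to that of the 3952 H3K4me3 peaks with JIL-1 and no H3K27acS28ph, of which 67.8% had H3K27ac (66.3 to 69.2) and 75.8% had H3K4me1 (74.5 to 77.1). At those sites H3K9acS10ph reached 76.5% (75.2 to 77.8), below its share at the members.

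**Figure D1:**
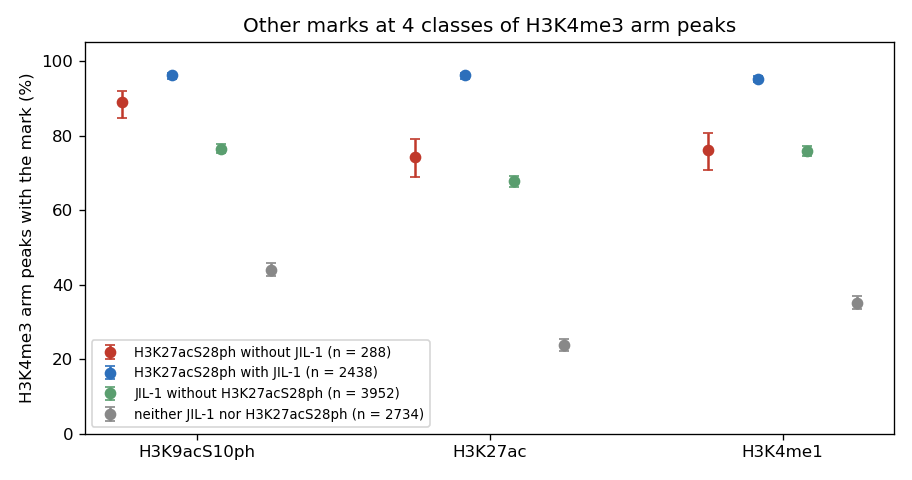
Share of H3K4me3 arm peaks overlapping H3K9acS10ph, H3K27ac and H3K4me1 (%), for the members (red) and 3 other classes; points are shares and bars 95% Wilson intervals. The members lie between the sites with H3K27acS28ph and JIL-1 and the sites with neither for all 3 marks, at 88.9%, 74.3% and 76%.

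All 3 of these marks were called together at 185 members (64.2%, 58.5 to 69.6), against 90.1% of sites with H3K27acS28ph and JIL-1, 15.8% of sites with neither and 53.9% of all arm H3K4me3 peaks. The next most frequent pattern was H3K9acS10ph without either unphosphorylated mark, at 39 members (13.5%, 10.1 to 18), against 1.76% of sites with H3K27acS28ph and JIL-1, 19.3% (17.9 to 20.8) of sites with neither and 9.99% of all arm H3K4me3 peaks. The members' share thus lay between those of the other classes for this pattern too. A further 18 members had H3K9acS10ph with H3K4me1 alone (6.25%, against 6.58% of all arm H3K4me3 peaks). It was called with H3K27ac alone at 14 members (4.86%, against 2.12% of all). H3K27ac and H3K4me1 without it were called at 11 (3.82%, against 5.4% of all). H3K4me1 alone was called at 5 members (1.74%, against 3.2% of all) and H3K27ac alone at 4 (1.39%, against 1.16% of all). At 12 members (4.17%) H3K4me3 and H3K27acS28ph were the sole marks of the 6 lists, against 5 of the 2438 sites with H3K27acS28ph and JIL-1 (0.205%). None of H3K9acS10ph, H3K27ac and H3K4me1 was called at 42.7% of the sites with neither and at 17.7% of all arm H3K4me3 peaks.

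The members were narrower and weaker H3K4me3 peaks than those with H3K27acS28ph and JIL-1. Their median width was 1138 bp (quartiles 934 and 1526), against 1930 bp (1336 and 2791) where JIL-1 was also called and 960 bp (784 and 1218) at sites with neither. The score of a peak is the authors' value, taken here as a measure of significance that is comparable within a list. The median H3K4me3 score was 409 at the members, against 3100 with JIL-1 and 88.9 with neither. Scores pile up at 3100, and 25.3% of the members (20.7 to 30.7) stood at or above it, against 63.9% of the sites with H3K27acS28ph and JIL-1 and 3% of the sites with neither.

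Since wider peaks meet other lists more easily, the shares were also taken within quartiles of H3K4me3 width. In the narrowest quartile (up to 934 bp) H3K9acS10ph was present at 81.1% of 74 members (70.7 to 88.4), against 94.8% of 135 sites with H3K27acS28ph and JIL-1 and 31.5% of 1282 with neither. In the widest quartile (1856 bp and above) it was present at 89.4% of 47 members (77.4 to 95.4), against 95.3% with both and 58.5% with neither. The members' share exceeded that of the sites with neither in each quartile, with no overlap of the intervals, and this held for H3K27ac and H3K4me1 too. Against sites with H3K27acS28ph and JIL-1 the order was less firm, because the H3K9acS10ph intervals overlapped in the 2 widest quartiles and not in the 2 narrowest. For H3K27ac, in contrast, the members stood at 80.9% (67.5 to 89.6) in the widest quartile, against 98.8% (98 to 99.2) with JIL-1. The shares were not taken at like H3K4me3 scores, which by the median were higher at the members than at sites with neither.

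The lack of JIL-1 among H3K27acS28ph sites moved with width and strength. In the narrowest quartile of H3K4me3 width 35.4% of the sites with H3K27acS28ph were members (74 of 209), then 21%, 9.97% and 3.52% (47 of 1337) in the widest. H3K4me3 peaks without H3K27acS28ph moved the same way with width. In the narrowest quartile 1282 of them lacked JIL-1 and 865 had it, against 171 and 844 in the widest. The trend with width was thus not particular to sites with H3K27acS28ph. By the H3K27acS28ph score at the site, 16.3% were members in the lowest quartile (scores up to 90.7), then 11.2%, 8.81% and 6.01% in the highest (from 350). These shares use the lists of the rule and are descriptions. The median H3K27acS28ph score was 121 at the members (quartiles 74.5 and 229), against 176 (95.4 and 364) with JIL-1. Whether a JIL-1 signal lay at the members below the authors' peak threshold was not tested.

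H3K9acS10ph strength was not used by the rule. Where it was called, its median score was 653 at the members (quartiles 248 and 1653), against 2083 (1045 and 3100) at sites with H3K27acS28ph and JIL-1, 610 (234 and 1416) at sites with JIL-1 and no H3K27acS28ph, and 195 (94.3 and 568) at sites with neither. The H3K9acS10ph peaks at the members thus ranked well below those at sites with the kinase and H3K27acS28ph, near those at sites with the kinase alone, and above those at sites with neither. Their median width was 2753 bp, against 3915 bp, 2873 bp and 2160 bp in the same order of classes.

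**Figure D2:**
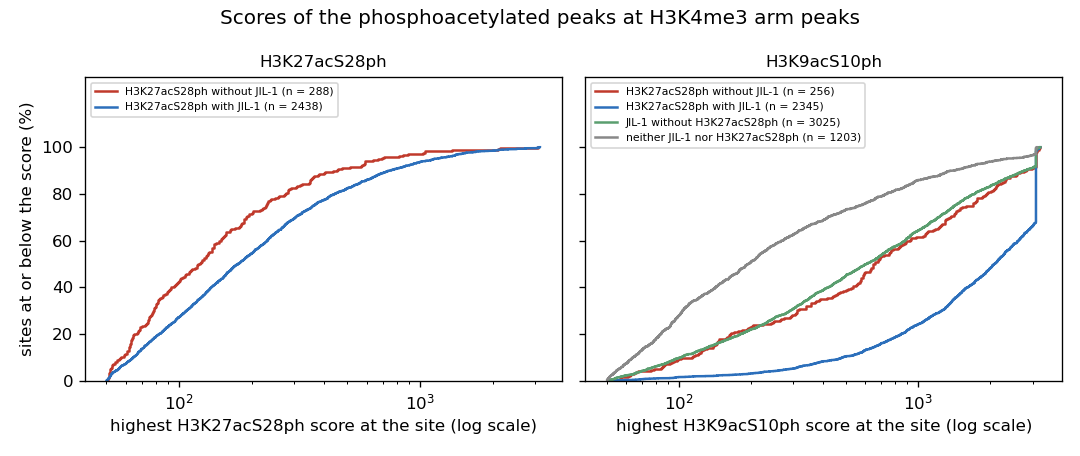
Cumulative share of sites (%) by the highest H3K27acS28ph score (left) and H3K9acS10ph score (right) at the site, on log axes, for the members (red) and other classes of H3K4me3 arm peaks. The members' H3K9acS10ph curve runs beside that of sites with JIL-1 and no H3K27acS28ph (medians 653 and 610), far left of that of sites with both (median 2083).

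By the medians, members lay nearer to a JIL-1 peak than sites with neither JIL-1 nor H3K27acS28ph did. The gap from a member to the nearest JIL-1 peak, counted in bases between the 2 edges, had a median of 956 bp (quartiles 352 and 2506), with extremes of 2 and 38273 bp. At sites with neither JIL-1 nor H3K27acS28ph the median was 2052 bp (704 and 5279). A JIL-1 peak lay within 200 bp of 12.5% of the members, within 500 bp of 33.7%, within 1000 bp of 52.1% (46.3 to 57.8) and within 5000 bp of 85.4%. The shares at sites with neither were 8.12%, 19.3%, 32% (30.3 to 33.8) and 73.6%, and 33.9% of all arm H3K4me3 peaks without JIL-1 had a JIL-1 peak within 1000 bp. For the 1203 sites with H3K9acS10ph and without JIL-1 or H3K27acS28ph, 39.8% (37.1 to 42.6) lay within 1000 bp. The nearest JIL-1 peak itself had a median score of 195 at the members, against 146 at sites with neither and 163 over all JIL-1 arm peaks.

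**Figure D3:**
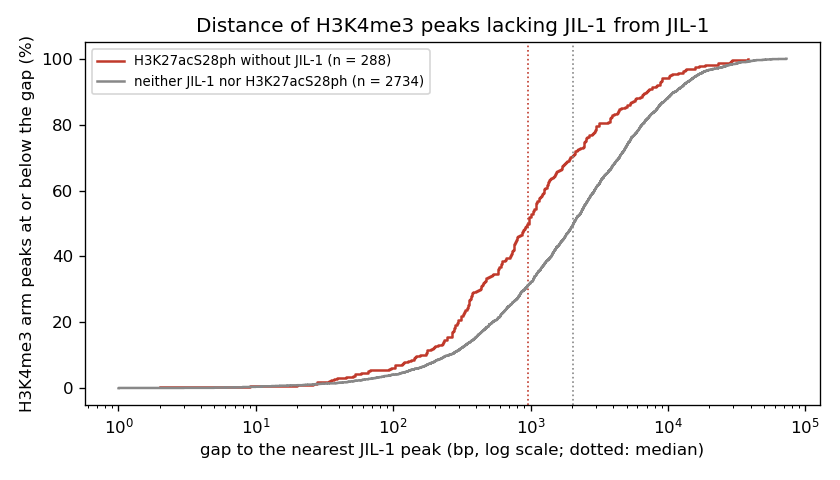
Cumulative share of H3K4me3 arm peaks (%) by the gap to the nearest JIL-1 peak (bp, log axis, gaps of 0 drawn at 1), for members (red) and for sites with neither JIL-1 nor H3K27acS28ph (grey). Dotted lines mark the medians of 956 and 2052 bp, and the red curve lies above the grey one from about 100 bp to 10 kb.

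The unphosphorylated marks became rarer with distance from JIL-1 and H3K9acS10ph less so. Of the 97 members with a gap of at most 500 bp, 88.7% carried H3K27ac (80.8 to 93.5), 89.7% H3K4me1 (82.1 to 94.3) and 93.8% H3K9acS10ph (87.2 to 97.1). Of the 42 members more than 5000 bp from JIL-1, 42.9% carried H3K27ac (29.1 to 57.8), 42.9% H3K4me1 and 85.7% H3K9acS10ph (72.2 to 93.3). The intervals of the near and the far members do not overlap for H3K27ac and H3K4me1 and do overlap for H3K9acS10ph. In between, the 53 members at 501 to 1000 bp had 86.8% with H3K27ac and 88.7% with H3K9acS10ph, and the 96 members at 1001 to 5000 bp had 66.7% and 85.4%.

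At sites with neither JIL-1 nor H3K27acS28ph all 3 marks became rarer with distance. H3K9acS10ph was called at 58.1% of 527 such sites within 500 bp of JIL-1 (53.8 to 62.2) and at 33.9% of 723 beyond 5000 bp (30.5 to 37.4), while H3K27ac was called at 44% and 8.02%. At every distance the members had more of each mark. Beyond 5000 bp, 85.7% of the members had H3K9acS10ph, against 33.9% of the sites with neither. The members at more than 5000 bp had a median H3K27acS28ph score of 90.3, against 133 for those within 500 bp, and like H3K4me3 widths of 1179 and 1146 bp.

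**Figure D4:**
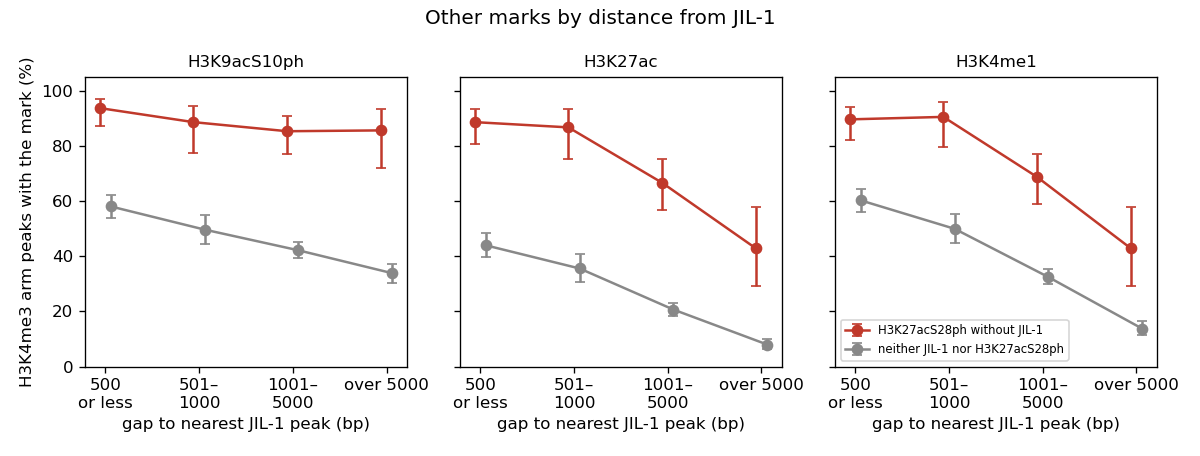
Share of sites (%) with H3K9acS10ph, H3K27ac and H3K4me1 in 4 classes of gap to the nearest JIL-1 peak, for members (red) and sites with neither JIL-1 nor H3K27acS28ph (grey), with 95% Wilson intervals. H3K9acS10ph at the members stays between 85.4% and 93.8%, while H3K27ac is at 88.7% in the nearest class and 42.9% in the farthest.

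Some peaks at the members ran on to JIL-1. The H3K27acS28ph peak at a member reached a JIL-1 peak outside the H3K4me3 peak in 54 cases (18.8%, 14.7 to 23.7). At 51 members it also touched another H3K4me3 peak that did have JIL-1. No other class has H3K27acS28ph without JIL-1, so these counts have no share beside them and are descriptions. The H3K27acS28ph peaks had a median width of 2070 bp and a median score of 281 at these 54 members, against 1234 bp and 101 at the remaining 234. The H3K27ac peak of a member reached JIL-1 at 136 of 214 members with H3K27ac (63.6%, 56.9 to 69.7), against 59.5% (55.7 to 63.2) of the sites with H3K27ac and neither JIL-1 nor H3K27acS28ph. The H3K9acS10ph peak did so at 104 of 256 members (40.6%, 34.8 to 46.7), against 32.1% (29.5 to 34.8). The H3K4me1 peak did so at 146 of 219 (66.7%, 60.2 to 72.6), against 56.3% (53.1 to 59.4). The intervals overlap for H3K27ac, touch within rounding for H3K9acS10ph and do not overlap for H3K4me1. Among all arm H3K4me3 peaks with the mark, most of which have JIL-1 themselves, 94%, 85.6% and 91.2% reached JIL-1. At 182 members (63.2%, 57.5 to 68.6) at least 1 of these 4 kinds of peak did, and at the other 106 none did. That share was not taken in the other classes.

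Around the members' midpoints the lists showed a JIL-1 shoulder. JIL-1 covered none of them at the midpoint, as the rule requires, 14.2% at 1000 bp on either side and at most 33.5%, at 2100 bp, before 23.6% at 10000 bp. At sites with neither JIL-1 nor H3K27acS28ph the largest coverage was 20.8%, at 6900 bp. H3K27acS28ph covered 85.4% of the member midpoints and 28.1% of positions 1000 bp away, against 82.3% and 39.6% where JIL-1 was also called. Both classes are defined by overlap with H3K27acS28ph, so its coverage of the midpoints is largely set by the rule. At 1000 bp H3K4me3 itself covered 34% of positions around the members, against 60.5% with JIL-1. The part of peak width in the lower H3K27acS28ph coverage there was not tested. H3K9acS10ph covered 87.8% of member midpoints, against 95.7% with JIL-1 and 41.7% with neither. H3K4me1 covered 68.8% of member midpoints and 56.4% at 1000 bp.

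**Figure D5:**
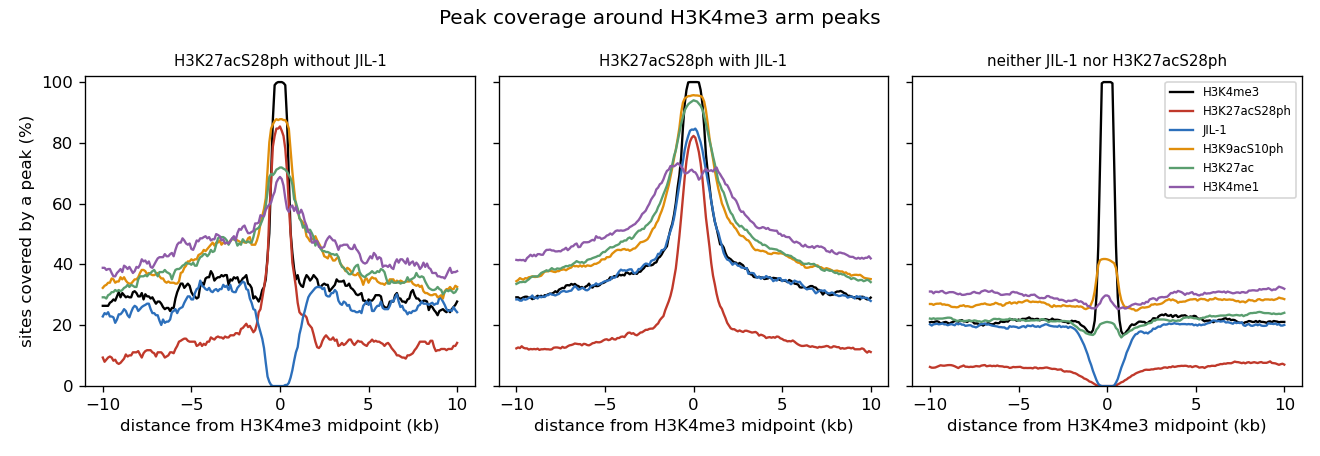
Share of sites (%) whose position lies inside a peak of each list, by distance from the midpoint of the H3K4me3 peak (kb), for members (left), sites with H3K27acS28ph and JIL-1 (middle) and sites with neither (right). JIL-1 at the members is at 0 in the centre by the rule and has shoulders of about 33% near 2 kb on either side.

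How far H3K27acS28ph overlapped the H3K4me3 peak, which the rule requires, varied among the members. It covered between 1.07% and all of the H3K4me3 peak, with a median of 85.9% (quartiles 62.2 and 100), and the 2 midpoints lay a median of 224 bp apart. The shared stretch had a median of 938 bp, against 1220 bp at sites with H3K27acS28ph and JIL-1. The highest-scoring H3K27acS28ph peak spanned the whole H3K4me3 peak at 80 members, lay inside it at 54 and overlapped it at 1 side in 154. The 288 members met 290 distinct H3K27acS28ph peaks, 9% of those on the arms, and 8 members met more than 1. Some members share an H3K27acS28ph peak, so they are not all independent.

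Members were spread over all arms. There were 50 on 2L, 60 on 2R, 63 on 3L, 63 on 3R, 49 on X and 3 on chromosome 4, or 2.17 to 2.84 per Mb. The share of H3K27acS28ph sites without JIL-1 was 13% on 2L (9.97 to 16.7), 10.2% on 2R, 11.6% on 3L, 9.39% on 3R and 9.3% on X (7.1 to 12.1), with overlapping intervals, and 3 of 10 on chromosome 4 (10.8 to 60.3). Another member lay within 10000 bp of 60 members (20.8%). Another site of the same class lay that near at 76% of the sites with H3K27acS28ph and JIL-1. This share was 74.6% of those with JIL-1 and no H3K27acS28ph and 54.8% of those with neither. These classes are larger than that of the members, and the part of class size was not tested. The next H3K4me3 peak on at least 1 side had JIL-1 at 88.9% of the members (84.7 to 92), against 80% of the sites with neither (78.5 to 81.5) and 87.9% of all arm H3K4me3 peaks. It had H3K27acS28ph at 66% of the members, against 69.6% of the sites with H3K27acS28ph and JIL-1, 35.4% of the sites with neither and 48.1% of all, where an H3K27acS28ph peak that touches both neighbours counts for both.

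The 32 members without H3K9acS10ph differed from the 256 with it in the other marks. H3K27ac was called at 46.9% of them (30.9 to 63.6), against 77.7% of the members with H3K9acS10ph (72.2 to 82.4), and H3K4me1 at 50% (33.6 to 66.4), against 79.3% (73.9 to 83.8). Their median H3K4me3 score was 117, against 623, and their median gap to JIL-1 1384 bp, against 884 bp. Their median H3K27acS28ph score was 109, against 121. The link between the marks was not particular to the members. Of the sites with H3K9acS10ph and without JIL-1 or H3K27acS28ph, 38.5% had H3K27ac, against 23.7% of all sites with neither. For H3K4me1 these shares were 53.5% and 35.1%. The second group contains the first, so these contrasts are smaller than those of sites with against sites without H3K9acS10ph.

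Positions of single members count from 1 and include both ends, with scaffold names as in release 5 of the fly genome. No gene names or sequences are given for them, since no genome or annotation of that release was used here. The member with the highest H3K27acS28ph score (3100) lay at 3L:22066334-22067861, 353 bp from a JIL-1 peak that scored 1500, with H3K9acS10ph and H3K27ac both at 3100. Its H3K27acS28ph peak ran on over 3L:22066892-22070374 and met JIL-1 there. The next, at X:934940-935840, differed, with an H3K27acS28ph peak of 9241 bp that scored 2145, H3K27ac, and neither H3K9acS10ph nor H3K4me1, and it lay 5579 bp from a JIL-1 peak of score 67.2. Its long H3K27acS28ph peak, at X:926295-935535, reached a JIL-1 peak outside the H3K4me3 peak. The third, at 3R:24976642-24977729, scored 2111, lay 198 bp from JIL-1 and had the other 3 marks at 3100. A single H3K27acS28ph peak at 3L:19865263-19869447, with a score of 1360, made members of the H3K4me3 peaks at 3L:19868753-19869909 and 3L:19866683-19867545, which lay 1703 and 578 bp from JIL-1.

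The member farthest from JIL-1 lay at 4:631172-632547, with a gap of 38273 bp, and carried H3K9acS10ph, H3K27ac and H3K4me1. It was followed by the member at 2L:22874747-22875868, with a gap of 29226 bp, an H3K4me3 score of 3100, an H3K9acS10ph score of 2567 and H3K27ac at 3100. The members at 2R:8685788-8688629 and 2R:17830737-17831841 lay 28803 and 28304 bp from JIL-1. Both had weak H3K9acS10ph, with scores of 86 and 76.4, and no H3K27ac. The fifth, at X:15313916-15314962 with a gap of 23012 bp, had none of the 3 other marks and an H3K27acS28ph score of 177. Strong and weak sites thus both occurred far from the kinase.

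At the border of the rule, the members nearest to JIL-1 had gaps of 2, 9, 20, 26 and 28 bp, at 2L:18856495-18857881, at X:13786496-13787057, at 2L:7024997-7025953, at 2L:6944176-6945486 and at 2R:3569968-3571435. All 5 carried H3K9acS10ph, H3K27ac and H3K4me1. The sites with H3K27acS28ph just outside the rule shared 7, 12, 14, 19 and 21 bp with JIL-1, at 3R:14021164-14022413, at 2L:8228268-8229799, at 2L:6653499-6654509, at 3R:22702202-22703114 and at 3R:13533292-13534271. Their H3K27acS28ph scores of 65 to 549 overlapped the 149 to 554 of those just inside. Not all of them carried the 3 other marks. The first lacked H3K27ac, that at 2L:8228268-8229799 lacked H3K9acS10ph, and that at 2L:6653499-6654509 lacked H3K27ac and H3K4me1. Those at 3R:22702202-22703114 and 3R:13533292-13534271 had all 3. A few bases of the called edge decide membership here.

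The 5 widest members all lay on 2L and all lacked H3K9acS10ph. They lay at 2L:1164210-1185655 (21446 bp), 2L:540612-559057 (18446 bp), 2L:563860-575581 (11722 bp), 2L:19121309-19129201 (7893 bp) and 2L:19129372-19135815 (6444 bp). All 5 carried H3K27ac at a score of 3100 and H3K4me1, had H3K27acS28ph scores of 293 to 888, and lay 68 to 5041 bp from a JIL-1 peak. They are far from the median member of 1138 bp, and the widest member with H3K9acS10ph measured 5698 bp. The first 3 lie in the first 1.2 Mb of 2L, where the H3K4me3 list held 151 peaks per Mb, against 59.9 on the rest of 2L. The DNA copy number there was not tested. Among the 5 members without H3K9acS10ph that scored highest for H3K27acS28ph, 3 were from this set, beside the X site above and a site at 2R:3720344-3721307 with a score of 707 and H3K4me1 alone.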

How the data were processed

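The submitters' processing notes name Bowtie 0.12.5 for the alignment. The authors deposited 1 peak list per antibody, each peak with start, end and a score. Peak names carry the name MACS, per the files. The caller's settings and the use of an input library, as well as the build, are not given in the sources here. The unit of the score is not stated in the deposited files. Their lowest scores are 50.00 to 50.40, and scores were used only within a list. Arms are 2L, 2R, 3L, 3R, X and 4.

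An overlap meant at least 1 shared bp, and a gap the bases between peak edges. Where several peaks met a site, the highest score was taken. Shares have 95% Wilson intervals for counting error. With 1 library per antibody no test across samples was made. Alternatives were a 50% overlap, the upper 50% of scores in all lists, in JIL-1 or in H3K27acS28ph, 1000 bp windows, and JIL-1 at least 1000 bp away. Members, classes and named regions (5 per set, by score, width or gap) were chosen with earlier results of these data known. Overlap and gap routines were checked on simulated lists. Calculations used Python 3.11.15, numpy 2.4.6, pandas 2.3.3, scipy 1.17.1 and matplotlib 3.10.9.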

Additional observations from a re-analysis of the deposited data

Results flagged for a closer look

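The rule was limited to the arms. On the heterochromatic and unplaced scaffolds, which enter no comparison, 9 of the 79 H3K4me3 peaks overlapped H3K27acS28ph and no JIL-1 peak (11.4%, 95% Wilson interval 6.11 to 20.3), against 288 of 9412 on the arms (3.06%, 2.73 to 3.43). A count of 0 of 79 would allow a share of up to 3.8%. H3K27acS28ph was called at 32 of these 79 peaks (40.5%). Its list was unlike the others off the arms. Only 3223 of its 5634 peaks lay on the arms, against 12295 of 12417 for JIL-1 and 9412 of 9491 for H3K4me3. The shares on and off the arms are therefore not directly comparable, and the cause was not tested.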

How the results depend on the processing

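In all 18 combinations of 6 alternative settings and 3 marks, the members' share stayed above that of sites with neither JIL-1 nor H3K27acS28ph and below that of sites with both. For H3K4me1 in 1000 bp windows the margin to sites with both was less than the counting error (53.9% of members, 49.5 to 58.3, against 54.8%). Margins to sites with both were also small for H3K9acS10ph with the upper 50% of every list (89.7%, 84.9 to 93.1, against 93.9%). With the upper 50% of JIL-1 peaks H3K9acS10ph stood at 93.5% (91.4 to 95.1), against 96%. With JIL-1 at least 1000 bp away, the class with both (2588 sites) also took in sites with a nearer JIL-1 peak that did not overlap. By 1.5 times the count or by the 95% interval, 11 of 42 values kept within their limits and 31 moved. The sites differ between settings, and the cause of each move was not tested unless named. With 1000 bp windows around midpoints there were 488 members (251 shared with the 288), with H3K9acS10ph at 59.8%, H3K27ac at 40.8%, H3K4me1 at 53.9%, a median gap to JIL-1 of 660 bp, 64.3% within 1000 bp, and a width of 1000 bp by construction. With the upper 50% of JIL-1 peaks there were 677 members, all 288 included, with 93.5%, 81.8% and 83.6% for the 3 marks, a median gap of 2007 bp, 33.4% within 1000 bp and a median width of 1300 bp. With the upper 50% of H3K27acS28ph peaks 120 members were left, with H3K27ac at 88.3%, H3K4me1 at 85% and a median width of 1268 bp. With JIL-1 at least 1000 bp away 138 were left, with H3K27ac at 59.4%, H3K4me1 at 60.9%, a median gap of 2570 bp and, by construction, 0% within 1000 bp. With the upper 50% of every list there were 214 (76 shared with the 288), with H3K27ac at 93.5%, H3K4me1 at 61.7%, a median gap of 1944 bp, 33.6% within 1000 bp and a median width of 1746 bp. When overlap meant 50% of the shorter peak there were 370, with a median gap of 370 bp, 66.5% within 1000 bp and a median width of 1232 bp. Of these, 258 were among the 288, and the others overlapped JIL-1 by less than 50%, with a gap counted as 0. No paired analysis was possible because there was 1 library per antibody. Depth is unknown, so a JIL-1 peak missed for lack of reads and a site without JIL-1 cannot be told apart.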

Other observations

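The wide members without H3K9acS10ph belong to a wider set, looked at after their values were seen, as were both limits used here. Of the 74 H3K4me3 arm peaks of at least 6000 bp, 26 lacked H3K9acS10ph, 16 of them on 2L and 13 in the first 1.2 Mb of 2L. In that stretch 13 of 18 such wide peaks lacked it (72.2%, 49.1 to 87.5), against 13 of 56 wide arm peaks elsewhere (23.2%, 14.1 to 35.8). Of all 181 H3K4me3 peaks in that stretch 47.5% lacked it (40.4 to 54.8), and of all arm peaks under 6000 bp 27.4% did. All 5 members of this width were on 2L, 3 of them in that stretch.

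The first 1.2 Mb of 2L also differed from the rest of 2L in the H3K4me3 list itself. It held 151 H3K4me3 peaks per Mb, against 59.9 on the rest of 2L, with median widths of 2081 and 1161 bp. The stretch held 90 JIL-1, 52.5 H3K9acS10ph and 25.8 H3K27acS28ph peaks per Mb, against 81.1, 43.1 and 20 on the rest of 2L, and peaks of all 6 lists were wider by their medians than on the rest of the arm. The DNA copy number of this stretch in Kc167 was not tested, and its part in the density, the widths and the H3K9acS10ph calls of the 2L members was not tested either. Of its 181 H3K4me3 peaks 43.1% overlapped JIL-1 (36.1 to 50.4), against 66.2% on the rest of 2L (63.6 to 68.7), 52.5% overlapped H3K9acS10ph, against 71%, and 11.6% overlapped H3K27acS28ph, against 27.9%. It held 4 of the 288 members, 3 of them without H3K9acS10ph. Without the 5 wide members, H3K9acS10ph was present at 90.5% of the remaining 283.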
